A study of Mus musculus with 25 samples.

Results

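The genes C1qa, C1qb, C1qc, C2, C3, C4b, C3ar1, C5ar1, Cfp and Serping1, 10 components, receptors and regulators of the complement system, were chosen by name from the 30749 genes of the expression table. Complement is a cascade of proteins in blood and tissue that tags targets for uptake, calls in phagocytes and can open pores in membranes. C1q, built from the products of C1qa, C1qb and C1qc, starts the classical branch. C4b and C2 form the enzyme of that branch that splits C3, properdin (encoded by Cfp) steadies the enzyme of the alternative branch, and the C1 inhibitor encoded by Serping1 restrains the start of the cascade. The small fragments released on the way act on the receptors C3ar1 and C5ar1 of myeloid cells. In the brain, microglia are a main source of C1q, and complement is known there for tagging synapses for removal.

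RNA was measured in macrophages sorted from mouse glioblastomas, aggressive tumours of the brain, in models that the series title calls lineage-based. Monocyte-derived macrophages (MDM), which enter from the blood, gave 9 libraries: 2 from type 2 transplanted, 1 from type 2 spontaneous, 4 from type 1 transplanted and 2 from type 1 spontaneous tumours. Microglia, the resident macrophages of the brain, gave 12 libraries, 3 from each of these 4 classes, and 4 further samples, microglia of normal brain, are not analysed here. Tumour type is labelled 2 or 1, and the model is labelled transplanted or spontaneous; the strain, genotype, age and sort gate behind these labels are not given in the sources used here. No label states that the libraries of a group come from separate animals, so every p-value below measures the spread between libraries, part of which may be technical.

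Libraries held 26530069 to 50365607 reads over genes, and 16297 to 21435 genes were detected in each. Levels are normalised read counts. Fold changes are differences of log2(normalised count + 1) with the standard error of the fit, and a gene was called when limma-trend gave it an adjusted p (Benjamini-Hochberg, 17216 genes) under 0.05; all 10 complement genes passed the filter on low counts. The sorted populations carried their markers. The summed level of 8 microglia markers was 10375 to 194413 in MDM and 529208 to 1276336 in microglia, and that of 8 MDM markers was 82803 to 327099 in MDM and 1812 to 23279.5 in microglia. Other cells were present in part of the MDM libraries. All 9 measured genes of a 10-gene T and NK cell list were detected in the 4 type 1 transplanted MDM libraries, with summed levels of 134372 to 166784, and the sum was 222622 in type 2 transplanted MDM replicate 1. In each of these 5 libraries the T and NK sum was above the MDM marker sum, which was 82803 to 112083 and 141818 there. In the other 4 MDM libraries the T and NK sum was 5757 to 29574, and in microglia 73.9 to 3451. In a sorted bulk sample, fewer macrophages and less RNA of a gene per macrophage cannot be told apart.

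The C1q genes lie side by side on the minus strand of chromosome 4 within 18719 bases (GRCm38, RefSeq): C1qb at chr4:136880126-136886200, C1qc at chr4:136889801-136892936 and C1qa at chr4:136895916-136898844. C2 (chr17:34862602-34882100), C4b (chr17:34728139-34743902) and C3 (chr17:57203967-57228136) are on chromosome 17. C3ar1 (chr6:122847140-122856157), C5ar1 (chr7:16246743-16259540), Cfp (chrX:20925454-20931555) and Serping1 (chr2:84765360-84775444) lie apart from these, and all 10 genes are on the minus strand. RefSeq (GRCm38.p6) gave promoter windows of 300 bases, 250 before and 50 after a start site, for 6 of the 10 genes, C1qb, C1qc, C3, C3ar1, C5ar1 and Cfp. For C1qc and C5ar1 this start site lies inside the gene coordinates given above. The windows of C1qb and C1qc, a pair that kept nearly the same pattern over all libraries, and of Cfp, whose difference between the cell types ran the opposite way, are shown to 30 bases past the start, 5′ to 3′ on the minus strand.
C1qb promoter, chr4:136886171-136886450: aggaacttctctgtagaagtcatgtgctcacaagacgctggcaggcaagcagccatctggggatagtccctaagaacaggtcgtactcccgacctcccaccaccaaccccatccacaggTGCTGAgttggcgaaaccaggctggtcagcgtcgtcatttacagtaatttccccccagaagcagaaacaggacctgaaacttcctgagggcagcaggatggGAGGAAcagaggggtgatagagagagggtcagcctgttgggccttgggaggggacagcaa
C1qc promoter, chr4:136892885-136893164: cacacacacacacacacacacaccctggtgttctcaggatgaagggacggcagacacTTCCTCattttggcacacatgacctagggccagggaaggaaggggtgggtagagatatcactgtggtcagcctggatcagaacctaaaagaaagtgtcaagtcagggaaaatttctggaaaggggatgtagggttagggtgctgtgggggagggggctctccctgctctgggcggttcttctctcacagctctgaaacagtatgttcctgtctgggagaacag
Cfp promoter, chrX:20931526-20931805: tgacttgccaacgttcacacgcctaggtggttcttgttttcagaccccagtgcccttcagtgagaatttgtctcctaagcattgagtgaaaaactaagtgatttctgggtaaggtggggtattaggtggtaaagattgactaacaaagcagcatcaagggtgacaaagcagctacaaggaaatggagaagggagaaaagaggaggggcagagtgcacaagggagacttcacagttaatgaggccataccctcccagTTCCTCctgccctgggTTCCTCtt
Capitals mark 2 short motifs searched on both strands, GAGGAA (reverse TTCCTC), a core letter string of the myeloid factor PU.1, and TGCTGA (reverse TCAGCA), a half-site string of Maf factors. These strings share no position in the windows shown. GAGGAA was in the windows of C1qb, C1qc and Cfp, and in 28.3% of all 32851 windows of this length. TGCTGA was in those of C1qb, C3, C3ar1 and C5ar1, and in 19.5% of all windows. Such matches describe the letters of a window and are common.

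MDM held far less C1q RNA than microglia. Of the 10 genes, 7 were lower in MDM (C1qa, C1qb, C1qc, C2, C4b, C3ar1 and C5ar1), where 19.8% of all tested genes were called lower, and Cfp alone was higher, where 23.0% of all were. The median log2 fold change of the 10 was -2.38, against 0.07 over all tested genes. C1qa, which encodes the A chain of C1q, had a lowest, median and highest level of 3278, 26168 and 91298 in MDM, against 212708, 391912 and 983452 in microglia. C1qb, the B chain, had 6274, 57684 and 168016 in MDM, against 310224, 549492 and 1281789 in microglia. C1qc, the C chain, had 4112, 36345 and 138031 in MDM, against 267118, 436477 and 916607 in microglia. For each of the chains, the highest MDM library lay below the lowest microglia library. The log2 fold changes were -3.40 ± 0.32 for C1qa (adjusted p = 1.66e-07), -3.09 ± 0.33 for C1qb (adjusted p = 6.84e-07) and -3.19 ± 0.33 for C1qc (adjusted p = 5.28e-07). Together the C1q genes took 0.0484% to 1.10% of the reads of an MDM library, with a median of 0.376%, and 2.34% to 6.41% of those of a microglia library, with a median of 3.52%. Without the 5 MDM libraries rich in T and NK cell transcripts, the fold changes were -2.38 for C1qa, -2.07 for C1qb and -2.10 for C1qc, all called. These 5 include all 4 type 1 transplanted MDM libraries. Pooled values without them, here and below, therefore average the remaining classes and leave type 1 transplanted tumours out. The MDM libraries kept were also those with the most microglia transcripts. Their microglia marker sums were 79015 to 194413, against 10375 to 25162 in the 5 left out. The part of this in the values without the 5 libraries was not tested.

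The C1q chains kept their proportions while their level varied. Per kilobase of exon, C1qc stood at 0.570 to 0.743 of C1qb in MDM and at 0.626 to 0.779 in microglia. C1qa stood at 0.475 to 0.804 of C1qb in MDM and at 0.650 to 0.879 in microglia. Among all 17216 tested genes, the 2 whose log2 pattern over the 21 libraries was nearest to that of any C1q gene were the other 2 C1q genes, with a root mean square difference of 0.12 between C1qb and C1qc, 0.21 between C1qa and C1qc and 0.23 between C1qa and C1qb.

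**Figure D1:**
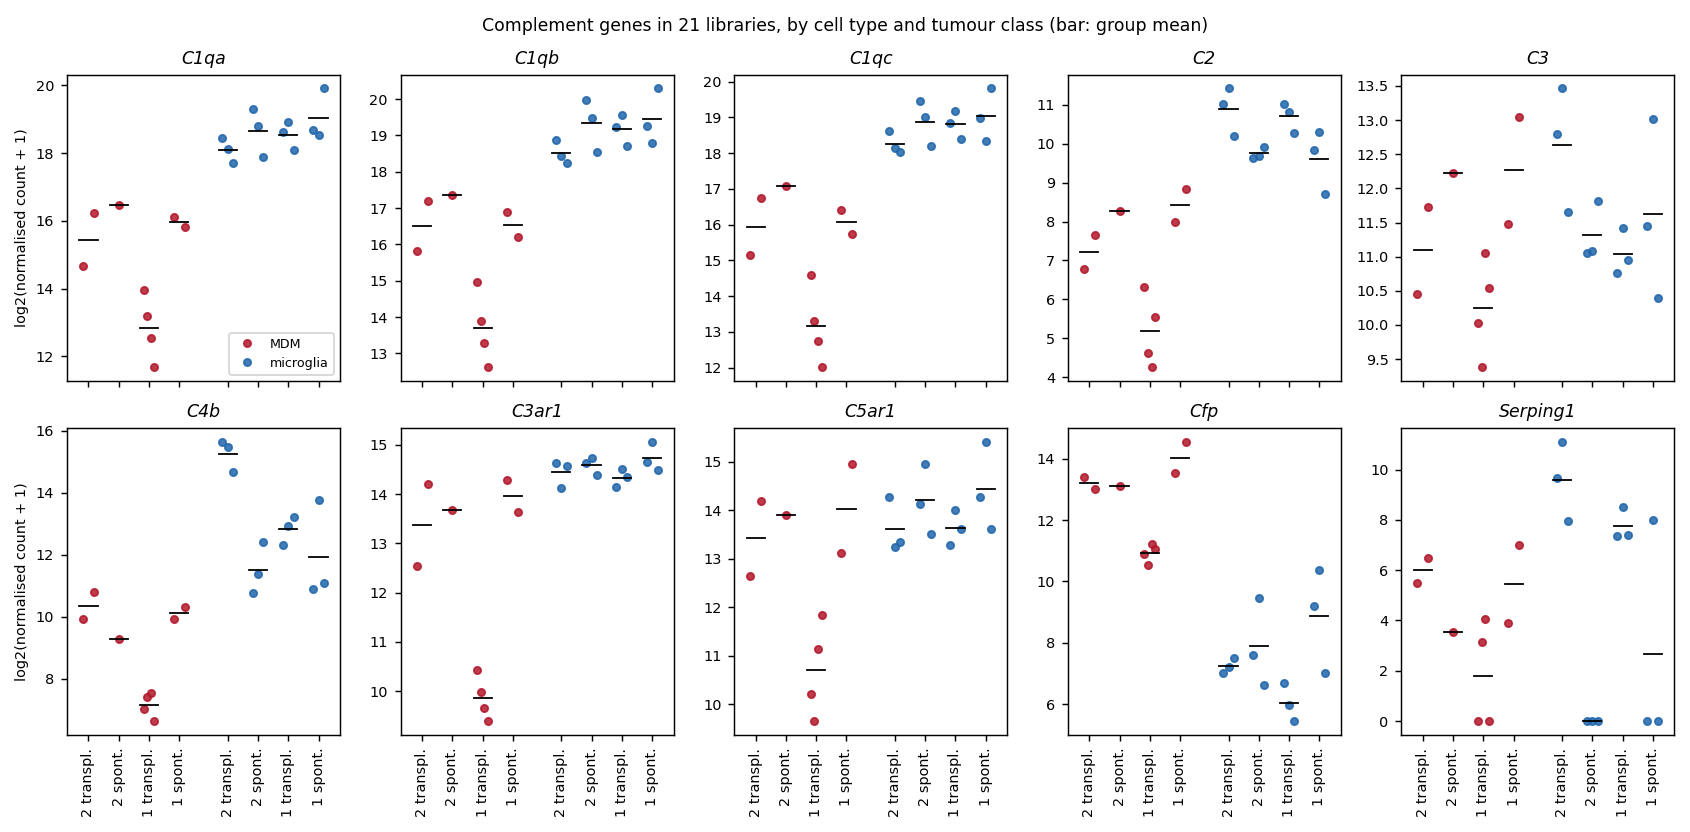
Level of each complement gene in every library, as log2(normalised count + 1) on the vertical axis, with each gene on its own scale. Points are libraries by cell type and tumour class and bars are group means; all MDM points of C1qa, C1qb and C1qc lie below all microglia points, all MDM points of Cfp lie above them, and the 4 type 1 transplanted MDM libraries are the lowest MDM of C1qa, C1qb, C1qc, C2, C4b, C3ar1, C5ar1 and Cfp.

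C2 and C4b, whose products form the C3-splitting enzyme of the classical branch, were also lower in MDM. C2 had a lowest, median and highest level of 18.1, 109.6 and 461 in MDM, against 414, 1207 and 2744 in microglia. Only the upper end of MDM reached the lower end of microglia (-2.96 ± 0.30, adjusted p = 3.27e-07). C4b had 98, 619 and 1769 in MDM, against 1757, 6594 and 50707 in microglia. The highest MDM library, type 2 transplanted replicate 3, passed just the lowest microglia library, type 2 spontaneous replicate 1 (-3.65 ± 0.33, adjusted p = 1.14e-07). Without the 5 T and NK rich MDM libraries the values were -1.96 for C2 and -2.84 for C4b, both still called. Reads of C2 are uncertain in part, since 59.2% of its exon bases are shared with Gm20547 on the same strand and 5.07% with Zbtb12 on the other. C4b has a near-identical neighbour, C4a, which was at 0 to 66.3 in MDM and 0 to 74.8 in microglia.

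C3 was not called between the cell types, and Cfp was far higher in MDM. C3, the substrate that all branches split, had a lowest, median and highest level of 665, 2127 and 8426 in MDM, against 1343, 2765 and 11284 in microglia. These ranges overlapped almost fully, and the difference of -0.20 was within its error (SE 0.35, adjusted p = 0.682); its sign turned when libraries were rescaled to the same total (0.04) and without the 5 T and NK rich MDM libraries (0.21). Cfp, which encodes properdin, had 1494, 8361 and 23894 in MDM, against 42.5, 138 and 1323 in microglia. Every MDM library lay above every microglia library, and the log2 fold change was 5.32 ± 0.39, 40.0-fold (adjusted p = 1.61e-08). Without the 5 T and NK rich libraries the value for Cfp was 5.40.

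Both fragment receptors were lower in MDM. C3ar1, the receptor of the C3a fragment, had a lowest, median and highest level of 669.5, 5931 and 20010.0 in MDM, against 17846, 23886 and 34041 in microglia. Microglia varied little, MDM widely, and the ranges touched (-1.80 ± 0.20, adjusted p = 1.18e-06). C5ar1, the receptor of the C5a fragment, had 807, 6451 and 31564 in MDM, against 9712, 14499 and 43348 in microglia. The ranges overlapped widely and the call was narrow (-0.95 ± 0.35, adjusted p = 0.0347): it was lost in 7 of 21 fits that each left out 1 library, whose values ran from -1.18 to -0.73. It was also lost for C5ar1 without a filter (-0.95), with libraries scaled to the same total (-0.72) and without 3 microglia libraries rich in other immune transcripts (-0.83). A replicate block, a term for the replicate number within each class, ended it too (-0.96). So did leaving out the 5 T and NK rich MDM libraries, and with them type 1 transplanted tumours (-0.04). C3ar1 kept its call without those 5 libraries, at -0.64 (adjusted p = 0.0279).

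Serping1, the inhibitor of the C1 proteases, was low and uneven. It had a lowest, median and highest level of 0, 13.8 and 127 in MDM, against 0, 167 and 2172 in microglia. The ranges overlapped from 0 upward in both cell types, and the pooled difference was not called (-0.80 ± 0.96, adjusted p = 0.533). Without the 5 T and NK rich MDM libraries, and so without type 1 transplanted tumours, its sign turned, to 1.08.

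Within each tumour class, the log2 fold changes of Cfp and the C1q genes had the sign of the pooled comparison. In type 2 transplanted tumours 5 of the 10 genes were lower in MDM and 1 was higher, where 8.45% and 9.52% of all tested genes were. In type 2 spontaneous tumours, with 1 MDM library, none was lower and 1, Cfp, was higher, where 5.73% and 4.97% of all were; 5 of the 10 had an unadjusted p under 0.05, and voom on the recovered counts also called 1. In type 1 transplanted tumours 8 were lower and 1 was higher, where 15.9% and 18.2% of all were. In type 1 spontaneous tumours 3 were lower and 1 was higher, where 4.86% and 8.52% of all were.

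C1qb stands for the C1q genes here. It was at 57684 and 149397 in type 2 transplanted MDM, against 482229, 353479 and 310224 in their microglia. In type 2 spontaneous tumours it was at 168016 in MDM, against 1033367, 734201 and 383873 in microglia. No MDM library of type 2 tumours reached a microglia library of its class. In type 1 transplanted tumours C1qb was at 32152, 15089.8, 9973 and 6274 in MDM, against 616754, 771576 and 424138 in microglia. In type 1 spontaneous tumours it was at 121467 and 75207 in MDM, against 621634, 452428 and 1281789 in microglia. The groups of type 1 did not overlap either. The log2 fold changes were -2.02 ± 0.64 (adjusted p = 0.0357), -1.98 ± 0.81 (not called, adjusted p = 0.134), -5.47 ± 0.54 (adjusted p = 5.64e-07) and -2.90 ± 0.64 (adjusted p = 0.00708) in that order of classes. C1qa and C1qc gave -2.64 and -2.32, -2.18 and -1.80, -5.69 and -5.64, and -3.07 and -2.97 in the same order, with the same calls. Several of these calls rested on 1 library. Without type 2 transplanted MDM replicate 1 the values for C1qa, C1qb and C1qc there were -1.87, -1.33 and -1.52, and without type 1 spontaneous MDM replicate 2 they were -2.92, -2.55 and -2.64 in that class; none of these was called. In type 2 transplanted tumours the C1qb call also ended without any 1 of the 3 microglia libraries, at -1.84, -2.06 and -2.15 without replicates 1, 2 and 3, and the C1qc call ended without microglia replicate 1, at -2.14. There the C1qb call also ended without a filter (-2.02) and both calls ended with quantile normalization (-1.56 for C1qb and -1.75 for C1qc). With the replicate block, the C1qb and C1qc calls ended in type 2 transplanted (-2.06 and -2.38) and in type 1 spontaneous tumours (-2.47 and -2.59).

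Cfp was called in all 4 classes, with log2 fold changes of 5.97 ± 0.76, 5.23 ± 0.96, 4.91 ± 0.63 and 5.18 ± 0.76 in type 2 transplanted, type 2 spontaneous, type 1 transplanted and type 1 spontaneous tumours. Type 2 spontaneous MDM had 1 library, so its error and call rest on the assumption that it varies like the other groups. C2 and C4b were called in transplanted tumours of both types. C2 changed by -3.66 ± 0.57 in type 2 and -5.52 ± 0.48 in type 1 transplanted tumours, and had -1.47 ± 0.73 and -1.19 ± 0.57 in type 2 and type 1 spontaneous tumours, which were not called. C4b changed by -4.90 ± 0.64 in type 2 and -5.67 ± 0.54 in type 1 transplanted tumours, and had -2.25 ± 0.81 and -1.80 ± 0.64 in the spontaneous ones, not called; without type 1 spontaneous microglia replicate 1 the last of these was -2.30 and called, as it was with quantile normalization (-1.91). C3ar1, C5ar1 and Serping1 were called in type 1 transplanted tumours, at -4.47 ± 0.33, -2.92 ± 0.56 and -5.96 ± 1.55. Type 2 transplanted tumours gave uncalled values of -1.07 ± 0.39, -0.19 ± 0.67 and -3.57 ± 1.85 for these genes; without MDM replicate 3 of that class, C3ar1 was at -1.91 and called, and Serping1 was called at a pseudocount of 8 (-3.43) and on the deposited scale (-3.05). For Serping1 the value in type 1 spontaneous tumours was 2.78 ± 1.85 and not called, but 5.45 and called without microglia replicate 2. C3 was called in no class, at -1.55 ± 0.68, 0.91 ± 0.85, -0.79 ± 0.57 and 0.64 ± 0.68 in the order of classes above.

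**Figure D2:**
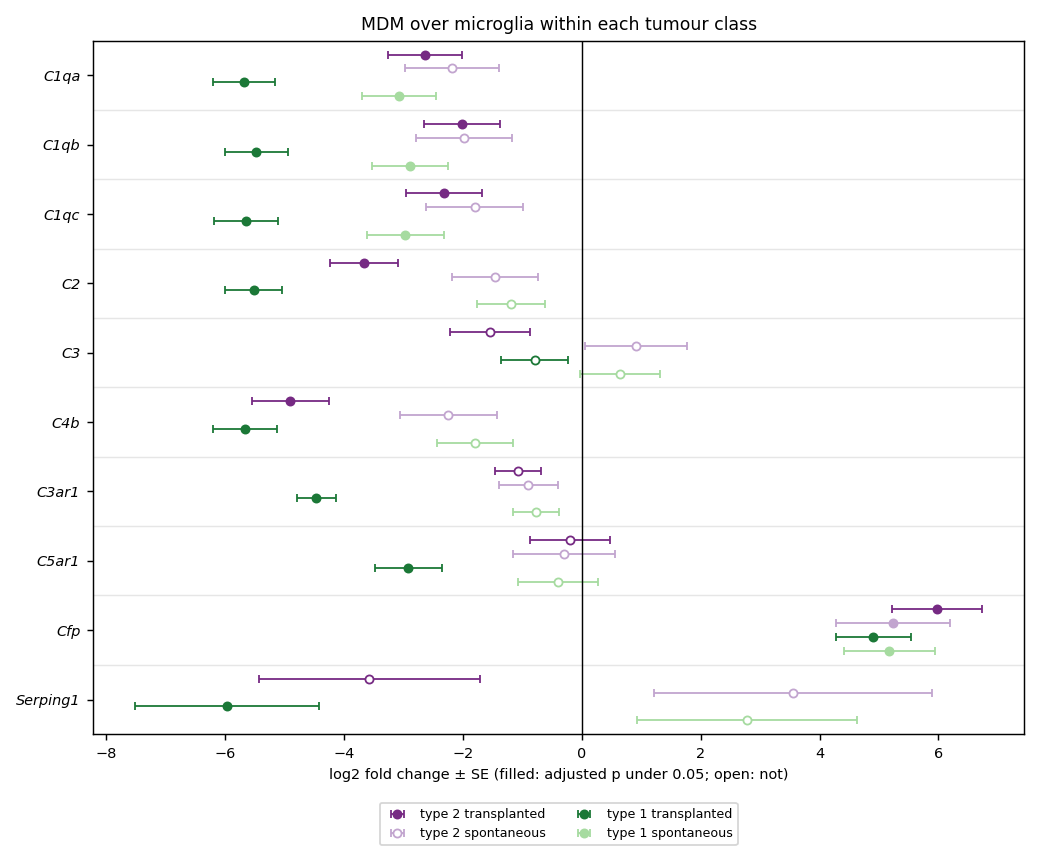
Log2 fold change of MDM over microglia for each complement gene within each tumour class, on the horizontal axis, with bars for the standard error of the fit and filled points for an adjusted p under 0.05. Cfp is filled and at 4.91 to 5.97 in all 4 classes, the C1q genes are all below 0, and the type 1 transplanted points of C1qa, C1qb, C1qc, C2, C4b, C3ar1, C5ar1 and Serping1 are the lowest of each gene.

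In microglia, transplanted tumours were set against spontaneous ones, and C4b and Serping1 were higher. These were 2 of the 10 genes, where 1.0% of all tested genes were called higher. C4b was at 50707, 45638 and 26265 in type 2 transplanted and 5136, 7740.0 and 9491 in type 1 transplanted microglia, against 1757, 2643 and 5448 in type 2 spontaneous and 1921, 13907 and 2150.4 in type 1 spontaneous microglia. All 3 type 2 transplanted libraries lay above every other microglia library, while type 1 spontaneous replicate 2 lay above all 3 type 1 transplanted libraries. Over both types the log2 fold change of C4b was 2.32 ± 0.41, adjusted p = 0.00525. Without type 1 spontaneous replicate 2 and type 1 transplanted replicates 1 and 2, rich in transcripts of other immune cells, it was 2.98. The first had the highest MDM marker sum of all microglia libraries (23279.5). The other 2 had the highest T and NK sums (2410 and 3451). That fit left 1 type 1 transplanted microglia library. It kept type 2 spontaneous replicate 2 (MDM marker sum 11142) and type 2 transplanted replicate 2 (neutrophil marker sum 5128). Serping1 was at 812, 2172 and 246 in type 2 transplanted and 165, 362 and 168 in type 1 transplanted microglia. In spontaneous microglia it was at 0 in all 3 type 2 libraries and at 0, 256 and 0 in type 1. It was thus detected in 6 of 6 transplanted and 1 of 6 spontaneous libraries, the exception being again type 1 spontaneous replicate 2. The log2 fold change of Serping1 was 7.33 ± 1.17, adjusted p = 0.00251; its size depends on the pseudocount, with 4.86 at a pseudocount of 8 and 3.94 on the deposited scale. In type 2 tumours alone, its mean in transplanted microglia was at least 325-fold higher than in spontaneous microglia, taken there at a floor of 3 reads per library; without replicate 2, the highest library, the bound was 160-fold.

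The other 8 genes were not called between the models in microglia. C2 had a lowest, median and highest level of 1182, 1938 and 2744 in transplanted microglia, against 414, 872 and 1255 in spontaneous microglia (1.11 ± 0.36, adjusted p = 0.114). Only the upper end of the spontaneous libraries reached the transplanted ones. Cfp had 42.5, 115 and 180.5 in transplanted microglia, against 98.3, 389 and 1323 in spontaneous microglia (-1.74 ± 0.48, adjusted p = 0.0682). This difference was called in 2 fits that each left out 1 library, at -2.20 without type 1 spontaneous replicate 3 and -2.06 without type 2 spontaneous replicate 3, and with quantile normalization (-1.81). The C1q genes had log2 fold changes of -0.54 ± 0.39, -0.55 ± 0.41 and -0.43 ± 0.41, C3 had 0.38 ± 0.43, C3ar1 -0.27 ± 0.25 and C5ar1 -0.69 ± 0.43. Markers of other cells in the microglia libraries were compared between the models. The summed level of 7 astrocyte and neural stem cell markers was 5800.0 to 12147 in transplanted and 4469 to 8510.3 in spontaneous microglia, that of 6 endothelial and mural markers was 482 to 1517 and 255 to 1649.8, and that of 4 fibroblast markers was 0 to 12.7 in transplanted microglia, with all 4 at 0 in spontaneous microglia. The sum of 8 MDM markers was 1812 to 6681 in transplanted and 4371 to 23279.5 in spontaneous microglia, with its highest value in type 1 spontaneous replicate 2. The sum of 8 neutrophil markers was 0 to 5128 in transplanted and 16.1 to 1106 in spontaneous microglia, with its highest value in type 2 transplanted replicate 2, which also held the most Serping1. Without that library C4b was at 2.27 and Serping1 at 6.95, both still called. The part of these cells in the C4b, Serping1 and Cfp values was otherwise not tested.

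Between type 2 and type 1 tumours, none of the 10 genes was called in microglia by limma-trend or by voom, where 0.47% of all tested genes were called by limma-trend, and 1 of the 10, C4b, had an unadjusted p under 0.05. C4b had a lowest, median and highest level of 1757, 15856 and 50707 in type 2, against 1921, 6438 and 13907 in type 1 microglia (1.02 ± 0.41, adjusted p = 0.446). The ranges overlapped at the low end and the upper end of type 2 lay far above that of type 1. Without type 1 spontaneous replicate 2 the value was 1.49 and called (adjusted p = 0.0251). The effects of the model in type 2 and in type 1 microglia were not distinguished for any of the 10 genes either, by limma-trend or by voom: 0.0116% of all genes were called in this interaction, and 3 of the 10, C3, C4b and Cfp, had an unadjusted p under 0.05. Among these the value was 2.84 ± 0.81, adjusted p = 0.416 for C4b.

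In transplanted tumours, type 2 MDM carried more RNA than type 1 MDM of most complement genes. Of the 10 genes 7 were higher (C1qa, C1qb, C1qc, C2, C4b, C3ar1 and C5ar1), where 2.96% of all tested genes were. C3ar1 was at 5931 and 18971 in type 2 transplanted MDM, against 1384, 1006, 808 and 669.5 in type 1 transplanted MDM. The groups were far apart (3.51 ± 0.37, adjusted p = 0.000115). C4b was at 974 and 1769 in type 2, against 129.6, 169, 183 and 98 in type 1 (3.21 ± 0.61, adjusted p = 0.00553). C1qa was at 26168 and 76229 in type 2, against 16047, 9411, 5987 and 3278 in type 1 (2.60 ± 0.59, adjusted p = 0.0147). Neither gene's groups overlapped, but replicate 1 of type 2 lay well below replicate 3. C1qb and C1qc had 2.81 ± 0.61 and 2.78 ± 0.61, C2 2.04 ± 0.54 and C5ar1 2.71 ± 0.64. Not called were Cfp at 10909 and 8361 in type 2, against 1904, 1494, 2391 and 2134 in type 1 (2.29 ± 0.72, adjusted p = 0.0676), C3 (0.84 ± 0.64) and Serping1 (4.20 ± 1.76). Without type 2 transplanted MDM replicate 3, which leaves replicate 1 alone in its group and assumes that it varies like the others, C3ar1 alone was called, at 2.67, and the values for C1qa, C1qb, C1qc, C2, C4b and C5ar1 were 1.83, 2.13, 1.99, 1.61, 2.78 and 1.94. Cfp was called by voom (2.29), with quantile normalization (2.39) and on the deposited scale (2.27). C2 was not called by voom (2.13), without a filter (2.04), with libraries scaled to the same total (1.77), on the deposited scale (1.41) or without type 1 replicate 2 (1.85) or 3 (1.73), and C5ar1 not without type 1 replicate 2 (2.36).

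In type 1 tumours, transplanted MDM were lower than spontaneous MDM in 9 of the 10 genes, where 7.96% of all tested genes were called lower; these libraries include the 4 type 1 transplanted MDM of the comparison between tumour types, so both comparisons share them. C3ar1 was at 1384, 1006, 808 and 669.5 in type 1 transplanted MDM, against 20010.0 and 12716 in type 1 spontaneous MDM (-4.10 ± 0.37, adjusted p = 1.2e-05). C5ar1 was at 1183, 807, 2264 and 3698 in transplanted, against 8966 and 31564 in spontaneous MDM (-3.32 ± 0.64, adjusted p = 0.00205). Cfp was at 1904, 1494, 2391 and 2134 in transplanted, against 11825 and 23894 in spontaneous MDM (-3.11 ± 0.72, adjusted p = 0.00755). For each of these genes all 4 transplanted libraries lay below both spontaneous ones. The C1q genes followed at -3.12 ± 0.59, -2.86 ± 0.61 and -2.91 ± 0.61, C2 at -3.24 ± 0.54, C4b at -2.97 ± 0.61 and C3 at -2.01 ± 0.64. C3 was at 1041, 665, 2127 and 1492 in transplanted, against 2866 and 8426 in spontaneous MDM, and was the narrowest call (adjusted p = 0.0442): it ended without transplanted replicate 1, 2 or 4 (-1.94, -1.72 and -2.11), without a filter (-2.01), with quantile normalization (-1.78), under rescaling to the same total (-1.47) and without spontaneous replicate 2 (-1.23). With a term for the replicate number the C3 call ended too (-2.01). The calls of C4b, C5ar1 and Cfp also ended without spontaneous replicate 2, at -2.78, -2.41 and -2.60. Serping1 was at 0, 7.86, 15.5 and 0 in transplanted, against 13.8 and 127 in spontaneous MDM and was not called (-3.65 ± 1.76, adjusted p = 0.193).

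Markers of other cells moved with these MDM comparisons. The T and NK cell sum was 20721 and 222622 in type 2 transplanted MDM, 134372 to 166784 in type 1 transplanted MDM and 5757 and 10080.4 in type 1 spontaneous MDM. The sum of 6 B cell markers was 2414 and 23591 in type 2 transplanted MDM, 17042 to 41345 in type 1 transplanted MDM and 623 and 2085 in type 1 spontaneous MDM. Both lymphocyte lists had higher sums in type 2 transplanted MDM replicate 1 and in type 1 transplanted MDM than in the other libraries of these groups. The sum of 6 border-associated macrophage markers was 9380.2 and 15336 in type 2 transplanted MDM, 957 to 1511 in type 1 transplanted MDM and 8089 and 18463 in type 1 spontaneous MDM. The sum of 8 microglia markers was 25162 and 194413 in type 2 transplanted MDM, 10375 to 16312 in type 1 transplanted MDM and 79015 and 188474 in type 1 spontaneous MDM. The sum of 8 MDM markers was 141818 and 273363 in type 2 transplanted MDM, 82803 to 112083 in type 1 transplanted MDM and 98525 and 327099 in type 1 spontaneous MDM. The sum of 6 dendritic cell markers was 10156 and 22419 in type 2 transplanted MDM, 5676 to 10769 in type 1 transplanted MDM and 20231 and 42947 in type 1 spontaneous MDM. The sum of 7 astrocyte and neural stem cell markers was 286 and 1654 in type 2 transplanted MDM, 221 to 408 in type 1 transplanted MDM and 1384 and 1710.1 in type 1 spontaneous MDM. Type 1 transplanted MDM lay below type 1 spontaneous MDM without overlap in the border-associated macrophage, microglia, dendritic cell, and astrocyte and neural stem cell lists. The sum of 6 endothelial and mural markers was 872 and 1624 in type 2 transplanted MDM, 2566 to 4428 in type 1 transplanted MDM and 1592 and 8763 in type 1 spontaneous MDM. That of 7 oligodendrocyte lineage markers was 2409 and 4113 in type 2 transplanted MDM, 4350.0 to 7441 in type 1 transplanted MDM and 4578 and 5157 in type 1 spontaneous MDM. For 4 fibroblast markers the sum was 439 in type 2 transplanted MDM replicate 1 and 6.99 in replicate 3. It was 0 to 27.9 in type 1 transplanted MDM and 1.63 and 22.1 in type 1 spontaneous MDM. For 8 neutrophil markers it was 279 and 400.0 in type 2 transplanted MDM. There it was 23.2 to 814 in type 1 transplanted MDM and 58.6 and 168 in type 1 spontaneous MDM. The part of the other cells in the complement differences was not tested.

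**Figure D3:**
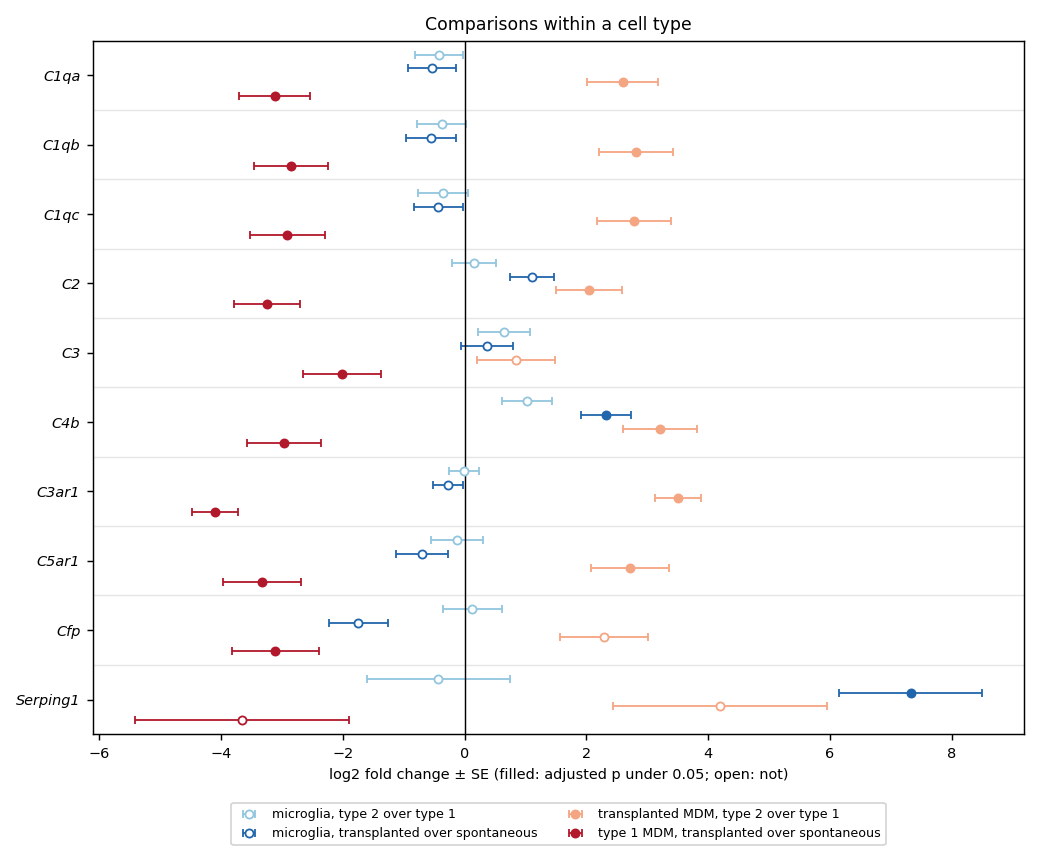
Log2 fold change of each complement gene in the comparisons made within 1 cell type, on the horizontal axis, with bars for the standard error of the fit and filled points for an adjusted p under 0.05. In microglia the filled points are C4b (2.32) and Serping1 (7.33) between the models, whereas in MDM the points of type 2 over type 1 all lie above 0 and those of transplanted over spontaneous all lie below 0, filled for 7 and 9 genes.

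Whether the cell types responded differently was tested with interaction terms. In transplanted tumours the effect of tumour type differed between MDM and microglia for 1 of the 10 genes, C3ar1, where 0.395% of all tested genes were called in that direction: its MDM over microglia difference was 3.39 ± 0.51 higher in type 2 than in type 1 tumours (adjusted p = 0.00739). Without the 3 microglia libraries rich in transcripts of other immune cells it was 3.41 and not called, nor was it called with the replicate block (3.16). C1qa, C1qb and C1qc had values of 3.04 ± 0.81, 3.46 ± 0.84 and 3.33 ± 0.84 that were not called (adjusted p = 0.082, 0.0586 and 0.0695); each was called without type 2 MDM replicate 1 (3.82, 4.14 and 4.12) and without type 1 MDM replicate 1 (3.42, 3.89 and 3.80), and C1qb also at a pseudocount of 8 (3.46) and on the deposited scale (3.45). C5ar1, at 2.72 ± 0.88, was called without type 2 MDM replicate 1 (3.50). In type 1 tumours the effect of the model differed between the cell types for 4 of the 10 genes, C2, C4b, C3ar1 and Serping1, where 3.12% of all were called in that direction. The values were -4.33 ± 0.75 for C2 (adjusted p = 0.0046), -3.87 ± 0.84 for C4b (adjusted p = 0.0149), -3.69 ± 0.51 for C3ar1 (adjusted p = 0.00127) and -8.74 ± 2.42 for Serping1 (adjusted p = 0.0463), each meaning a lower MDM over microglia difference in transplanted than in spontaneous tumours. C2 and C4b were lower in transplanted than in spontaneous MDM, while their means in type 1 transplanted and spontaneous microglia were 1707 ± 436 and 863 ± 423 for C2 and 7455 ± 2191 and 5993 ± 6855 for C4b (SD, n = 3 each). The C4b call ended without spontaneous MDM replicate 2 (-3.68), that of C2 without the 3 microglia libraries named above (-4.24), and that of Serping1 in 9 of 12 fits that each left out 1 library (-9.19 to -7.19). The Serping1 call also ended at a pseudocount of 8 (-5.26), without a filter (-8.74), with libraries scaled to the same total (-8.33), on the deposited scale (-4.06) and by voom (-9.38). With the replicate block the C4b (-3.575) and Serping1 (-8.16) calls ended too. C1qa, C1qb and C1qc had -2.61 ± 0.81, -2.58 ± 0.84 and -2.67 ± 0.84, not called, but were called without type 1 transplanted MDM replicate 1 (-2.99, -3.00 and -3.14), as was C5ar1 (-2.52 ± 0.88) without type 1 spontaneous MDM replicate 1 (-3.43).

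Compared per kilobase of exon, the C1q genes stood far above the other complement genes in both cell types. In MDM the median level per kilobase was 53018 for C1qb, 30212 for C1qc and 25162 for C1qa. Next came Cfp at 5111, C5ar1 at 2510.1, C3ar1 at 1378, C3 at 414, C4b at 115, C2 at 39.4 and Serping1 at 6.88. The ranges of all neighbours in this order overlapped over the 9 MDM libraries, although C1qb was above C1qc, C1qa above Cfp and C3 above C4b in 9 of 9. In microglia the medians were 505050.0 for C1qb, 376840.0 for C1qa, 362820.0 for C1qc, 5642 for C5ar1, 5548 for C3ar1, 1226 for C4b, 538 for C3, 434 for C2, 84.6 for Cfp and 83 for Serping1. The step from C1qc to C5ar1 was the only one between neighbours whose ranges did not overlap over the 12 microglia libraries. Cfp thus ranked 4 in MDM and 9 in microglia.

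The genes nearest in pattern to the other complement genes were sought in the same way, as the smallest root mean square difference of centred log2 levels over the 21 libraries. Close to C2 was Pros1 (0.63), which encodes the anticoagulant protein S. Nearest to C3 were Znfx1 (0.56) and Pik3r6 (0.58), for C3ar1 Tnfrsf11a (0.52) and Rab3il1 (0.53), and for C5ar1 Tlr2 (0.51), a receptor of bacterial lipoproteins, and Acer3 (0.60). C4b was nearest to Mertk (1.05), a receptor for the uptake of dying cells. Cfp was nearest to Ms4a4a (0.67) and Fam187b (0.80). Serping1 had no close neighbour, with Btnl6 (2.19) and Misp (2.31) the nearest.

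Of 48 further complement genes listed by role, 46 were in the table and 28 passed the filter. Between MDM and microglia, 3 of the 28 were higher and 7 lower, where 23.0% and 19.8% of all tested genes were, with a median log2 fold change of -0.17 against 0.07 over all tested genes. Among the initiators Masp1, a protease of the lectin branch, was at 0 to 272 in MDM and 376 to 2019 in microglia (-3.91 ± 0.56, adjusted p = 1.78e-05). C1ra, the protease that C1q activates, changed by -1.59 ± 0.26; these were the 2 of 7 tested initiators that were lower, and none was higher. Against the shares over all genes just given, neither the counts of the whole list nor those of a role are a result about these genes as a group. Among the 7 tested receptors, 2 were lower and 2 higher. Cd93, once described as a C1q receptor, was at 187 to 2286 in MDM and 0 to 375 in microglia (5.03 ± 0.70, adjusted p = 1.32e-05), and C5ar2, the other C5a receptor, changed by -1.89 ± 0.33. Among the 10 tested regulators 3 were lower and 1 was higher. Cd55, a membrane protein that speeds the decay of the C3-splitting enzymes, was at 10.4 to 1517 in MDM and 0 to 47.8 in microglia (6.03 ± 0.69, adjusted p = 1.37e-06). None of the 2 tested genes of the terminal pathway and none of the 2 other convertase genes was called over all classes, by their adjusted p from limma-trend or at an unadjusted p under 0.05. Within classes Cfb, which encodes the protease of the alternative branch, was higher in MDM in type 1 spontaneous tumours (2.39 ± 0.72, adjusted p = 0.0342) and lower in type 1 transplanted tumours (-1.64 ± 0.60, adjusted p = 0.0416), and its interaction of cell type and model was called (-4.03 ± 0.94, adjusted p = 0.0204).

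Within a cell type, 1 of the 28 genes was lower in transplanted than in spontaneous microglia, where 0.836% of all tested genes were, and none was called between the tumour types, where 0.47% of all were (3 of the 28 at an unadjusted p under 0.05). Colec12, a scavenger receptor with a collectin domain, was at 45.1, 65.5 and 40.4 in type 2 transplanted and 1.09, 119.6 and 182 in type 1 transplanted microglia, against 607, 829.9 and 1137 in type 2 spontaneous and 1024, 1162 and 493.3 in type 1 spontaneous microglia. Every transplanted library lay below every spontaneous one (-4.30 ± 0.86, adjusted p = 0.0154), the opposite direction to C4b and Serping1. In transplanted MDM, 4 genes were higher in type 2 than in type 1, where 2.96% of all were, among them C1ra (2.52 ± 0.47), Masp1 (4.85 ± 1.03) and C5ar2 (2.63 ± 0.60). In type 1 MDM, 6 were lower in transplanted than in spontaneous tumours, where 7.96% of all were, among them Masp1 (-5.76 ± 1.03), C1ra (-2.32 ± 0.47), Cfb (-2.61 ± 0.68), C5ar2 (-4.02 ± 0.60) and Itgam (-2.15 ± 0.52), a chain of the iC3b receptor. Cd55 (5.56 ± 1.26) and Cr2 (4.97 ± 1.47), a complement receptor of B cells, were higher there, where 5.79% of all were. Cr2 was at 204, 361, 101 and 142 in type 1 transplanted MDM, against 32.6 and 0 in type 1 spontaneous MDM, libraries in which the B cell sum differed as given above. The part of T, NK and B cells in the Cd55 and Cr2 values was not tested.

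**Figure D4:**
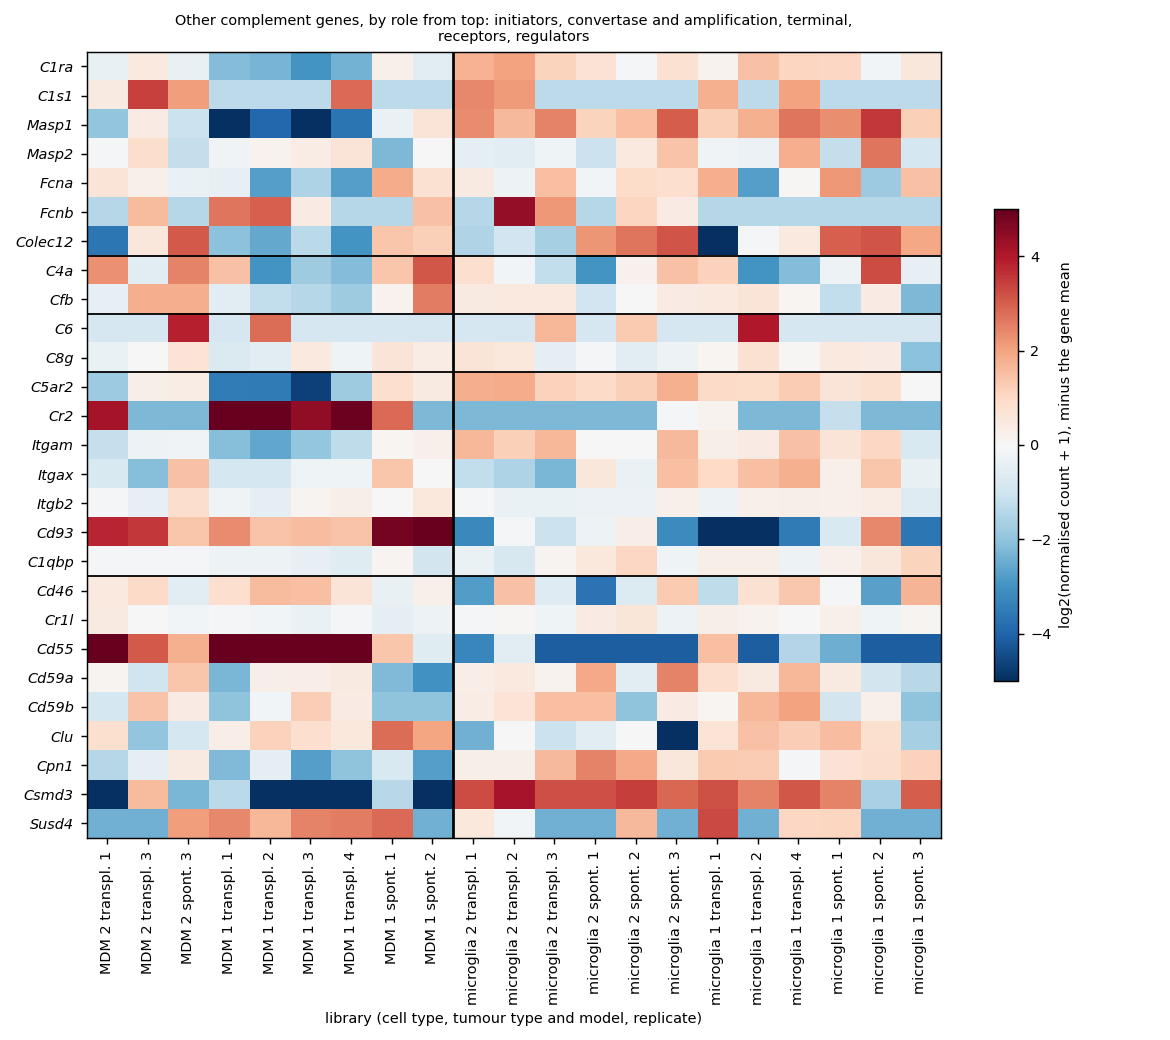
Level of 27 further complement genes in each library, as log2(normalised count + 1) minus the mean of the gene, from blue (lower) to red (higher), with colours capped at the ends of the scale. MDM libraries stand left of the vertical line and microglia right of it, and horizontal lines separate the roles; Cd93 and Cd55 are red mainly in MDM and Masp1 is red mainly in microglia.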

How the data were processed

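RNA-seq libraries of sorted tumour macrophages were measured; the submitters' processing notes name STAR 2.7.8a, the mouse build mm10 and DESeq2; the gene counter, its annotation and its use of strand are not given in the sources used here. The table the authors deposited holds log2-like values of the variance-stabilising form, with 4.2203 for a gene without reads. Inverting that form returned whole reads (largest deviation 1.1e-07, tolerance 1e-06) and size factors of 0.6204 to 1.55.

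Levels are these counts divided by size factors. Genes with at least 10 in at least 3 of the 21 libraries were tested (17216 of 30749) with limma-trend (limma 3.58.1, R 4.3.3) on log2(normalised count + 1), a scale that understates folds of low genes, as 8 group means sharing 1 spread; voom on the recovered reads was the count alternative. Calls are Benjamini-Hochberg adjusted p under 0.05. The code was tested on simulated data. Alternatives covered the pseudocount, filter, scaling, deposited scale, replicate block and libraries left out. The complement genes and all lists were chosen with earlier results of these data known. All 10 were described, with the 2 other complement genes of smallest p per role, any called within a cell type, and the 2 genes nearest in pattern; a few genes that this rule names are not reported here. Exon lengths and strands are from GENCODE M21 (GRCm38), gene coordinates from RefSeq and promoters from RefSeq (GRCm38.p6).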

Additional observations from a re-analysis of the deposited data

Results flagged for a closer look

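Among 50 sets, each a gene in a group of 4 or 6 libraries, 2 had a single library far from the rest. Chance gives about 1 in 20, which 2 of 50 does not exceed, and the microglia groups share libraries, so the sets are not independent. Cfp in type 2 microglia had its highest level, 702.9, in spontaneous replicate 2, and the other 5 libraries were at 98.3 to 193. That library also had the highest MDM marker sum of these 6, 11142, against 2446 to 6681 in the other 5. The part of MDM in its Cfp level was not tested. Serping1 in spontaneous microglia was at 256.1 in type 1 replicate 2 and at 0 in the other 5. With those 5 tied at 0, any level in the remaining library would have been flagged.

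In 5 cases the effect of a condition differed between MDM and microglia by an interaction term. The effect of tumour type in transplanted tumours differed for C3ar1, by 3.393 on the log2 scale. The effect of the model in type 1 tumours differed for C2, by -4.333, for C4b, by -3.873, for C3ar1, by -3.695, and for Serping1, by -8.744, a call that several other settings ended. With the replicate block, the C3ar1 call for tumour type and the C4b and Serping1 calls for the model ended. The 4 type 1 transplanted MDM libraries enter all 5 cases. They also hold the T and NK cell transcripts described above, whose part was not tested.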

How the results depend on the processing

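Of 120 values, 1 for each of the 10 genes in each of the 12 comparisons, 120 kept their direction and side of the threshold with the filter at 50, 117 with voom, 116 with a pseudocount of 8, 115 without a filter, 114 on the deposited scale, 111 with libraries scaled to the same total and 110 with quantile normalization. The cause of the changes below was not tested. Scaling to the same total turned C3 between the cell types (0.037), and in type 2 against type 1 microglia C3ar1 (0.11) and C5ar1 (0.0017); quantile normalization gave 0.12 and 0.0019. In the interaction of type and model in microglia C1qa turned to 0.12 and 0.26, and in that of cell type and model in type 1 Cfp turned to 0.21 and 0.029. For Serping1 in type 2 against type 1 microglia, a pseudocount of 8 gave 0.047 and the deposited scale 0.17. For the interaction of cell type and tumour type, both settings called 2 complement genes.

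Scaling to equal totals shifted the median over the tested genes by 0.22 (MDM against microglia), 0.55 (type 1 transplanted), 0.21 (type 2 spontaneous), 0.11 and 0.13 (type and model in microglia), -0.27 and 0.51 (type and model in MDM) and 0.17, -0.47 and 0.46 (interactions). The share of calls that were higher became 67.4% against 53.7%, 75.2% against 53.4%, 57.8% against 46.5%, 64.8% against 54.6% (model in microglia), 29.5% against 50%, 75.5% against 42.1%, 66.7% against 50%, 22.3% against 52.7% and 65.7% against 30.9% in that order. Quantile normalization moved the median by -0.15 (MDM against microglia), -0.17 (type 1 spontaneous, share 51.0% against 63.7%) and -0.20 (type 1 transplanted).

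Without the 5 MDM libraries rich in T and NK cell transcripts, C3 (0.21) and Serping1 (1.08) between the cell types and C5ar1 in type 2 transplanted tumours (0.58) turned, and 3 genes were called in that class; comparisons that need type 1 transplanted MDM could not be made. Without the 3 microglia libraries rich in transcripts of other immune cells, C5ar1 in type 1 spontaneous tumours (0.086), C3ar1 (0.058), C5ar1 (0.13) and Serping1 (1.08) between types in microglia, and C1qa (0.64), C1qb (0.25), C1qc (0.38) and C5ar1 (-0.24) in the interaction of type and model turned; 0 genes were called in the interaction of cell type and tumour type.

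Leaving out 1 library at a time, the calls among the 10 genes ranged from 7 to 8 between the cell types, 3 to 7 in type 2 transplanted, 1 to 1 in type 2 spontaneous, 9 to 9 in type 1 transplanted and 1 to 5 in type 1 spontaneous tumours. They ranged from 0 to 1 and 2 to 3 for type and model in microglia, 1 to 7 and 5 to 9 for type and model in MDM, and 0 to 0, 1 to 5 and 2 to 6 in the interactions. Values that turned ranged from -0.14 to 1.42 for C3 and -1.31 to 0.51 for C5ar1 (type 1 spontaneous), -0.65 to 0.076 (C5ar1, type 2 spontaneous) and -0.97 to 0.58 (C5ar1, type 2 transplanted). Between types in microglia the ranges were -0.069 to 0.33 (C2), -0.074 to 0.067 (C3ar1), -0.33 to 0.12 (C5ar1), -0.33 to 0.51 (Cfp) and -1.10 to 0.90 (Serping1). In the interaction of type and model they were -0.50 to 0.25 (C1qa), -0.30 to 0.50 (C2) and -0.26 to 0.63 (C5ar1), and in that of cell type and model -1.03 to 0.65 (Cfp). A lone library in an arm was assumed to vary like the other groups.

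MDM and microglia libraries share replicate numbers, which were taken from the column names. These names skip numbers in some groups, and the sample titles number some of the same libraries otherwise. The deviations of 7 same-numbered pairs from their group means correlated at 0.0351 to 0.2409, so the numbers were not taken to pair the samples. In 7 of 7 the MDM library correlated best with its own number, a hint from the data, and no label says what the number marks. Where a class had 2 MDM libraries, their deviations mirror each other, so these are not 7 separate agreements. Between classes r was -0.218 to 0.0825. Where MDM and microglia were compared, the replicate block was a term for each number within each class. Within a cell type it was a term for each number, shared by all classes. With the replicate block, calls became 2 in type 1 spontaneous tumours, 4 in type 2 transplanted tumours, 0 in the interaction of cell type and tumour type and 2 in that of cell type and model, and C5ar1 turned in type 2 spontaneous tumours (0.39) and between types in microglia (0.032), as did Cfp in the interaction of cell type and model (0.55).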

Other observations

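Same-numbered MDM and microglia libraries of 1 class stood side by side in 8 cases. C1qa, C1qb, C1qc, C2, C4b and C3ar1 were lower in MDM in 8 of 8, and Cfp was higher in 8 of 8. C3 was lower in 4 and higher in 4, and C5ar1 and Serping1 were lower in 6 and higher in 2.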
